A study of Mus musculus with 4 samples.

Results

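The small leucine-rich proteoglycans (SLRPs) of sciatic nerve were examined as 10 genes, Epyc, Dcn, Bgn, Lum, Fmod, Ogn, Kera, Aspn, Prelp and Omd, among 24062 gene symbols in the deposited count table. Epyc was selected on its higher values in both Nf1 pairs of these same libraries, and the other 9 genes were added as its family by symbol, so the question was whether the family shares that difference. The values of Epyc in the Nf1 pairs are therefore a description and carry no test. All 10 symbols were found, and 9 of them passed a filter of at least 1 CPM in 1 library or more, and Kera did not. CPM here is a gene's count set against its library's total count, after TMM scaling between libraries (edgeR's trimmed mean of M values).

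Gene expression was measured by RNA sequencing of sciatic nerve from 4-month-old C57BL/6 mice, with 1 library for each of 4 genotypes and no replicates. The PKO-NF1 library came from P2RY14-/- Nf1fl/f Dhh Cre mice, the NF1 library from Nf1fl/fl; Dhh Cre mice, the PKO library from P2RY14-/- mice, and the WT library from mice labelled only C57BL/6. Dhh Cre is active in the Schwann cell lineage, so cells from outside that lineage, such as those of vessels, keep their floxed Nf1. P2ry14 encodes a receptor for UDP-sugars, and Nf1 encodes neurofibromin, a brake on RAS. How many animals went into each library is not stated in the labels. Every ratio below compares 1 library with 1 other, and its 95% interval covers counting error only. Calls of higher or lower were made from a difference of 2-fold or more whose interval does not hold 1, and no test against the spread between animals was possible.

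SLRPs are secreted proteins with a small core of leucine-rich repeats. They bind collagen fibrils and control their spacing and diameter, and several also bind growth factors such as TGF-beta. Decorin (Dcn), biglycan (Bgn) and epiphycan (Epyc) carry chondroitin or dermatan sulfate chains, lumican (Lum), fibromodulin (Fmod), keratocan (Kera) and osteomodulin (Omd) carry keratan sulfate, and asporin (Aspn) and Prelp have no typical chain. In nerve the collagenous sheaths and the endoneurium are laid down largely by fibroblasts, which are rich in decorin. Epiphycan is best known from growth plate cartilage.

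Total counts were 14111201 to 20362685 per library. A count of 0 allows up to 3 counts, which is 0.152 to 0.183 CPM. Myelin genes, as the tissue label calls for, were abundant: Mbp, which encodes myelin basic protein, was at 7196 CPM in PKO-NF1, 3072 in NF1, 14760 in PKO and 9286 in WT. Nf1 was at 20.5 CPM in PKO-NF1 and 41.0 in PKO, and at 63.4 CPM in NF1 and 72.8 in WT; a gene total does not show which exons are deleted. P2ry14 was at 10.6 CPM in PKO-NF1 and 10.9 in PKO, against 65.3 CPM in NF1 and 37.6 in WT. The NF1 library is labelled a repeat, and 20 skeletal muscle genes took 6.29% of its counts, against 0.0303% in PKO-NF1, 0.0142% in PKO and 0.127% in WT. Scaling by total counts in place of TMM put the median log2 ratio of all genes at -0.22 in NF1 vs WT, -0.54 in PKO vs WT and -0.18 in PKO-NF1 vs NF1. The share of called genes that were higher was then 41.2% in NF1 vs WT (62.3% with TMM), 21.6% in PKO vs WT (65.7%) and 22.5% in PKO-NF1 vs NF1 (36.4%).

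The 10 genes lie on 4 chromosomes, mostly in clusters (GRCm38, GENCODE M21). Dcn (ENSMUSG00000019929), Lum (ENSMUSG00000036446), Kera (ENSMUSG00000019932) and Epyc (ENSMUSG00000019936) follow each other on the plus strand of chromosome 10, from 97479609 to 97682454, a stretch of 202.8 kb. Aspn (ENSMUSG00000021388), Omd (ENSMUSG00000048368) and Ogn (ENSMUSG00000021390; osteoglycin) sit on chromosome 13 with their relative Ecm2, from 49504810 to 49624501. Prelp (ENSMUSG00000041577) and Fmod (ENSMUSG00000041559) sit on chromosome 1 with Optc, from 133897199 to 134048277, and Bgn (ENSMUSG00000031375) lies on chromosome X from 73483602 to 73495933. Epyc has exonic bases in common with the antisense gene Gm10754, which had 0 to 4 counts per library. Whether the counting used strand is not stated, so reads of these genes cannot be told apart. The chromosome 13 genes lie within Cenpp, an antisense gene at 1.36 to 2.54 CPM.

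Base composition set these clusters apart. The longest transcripts of the chromosome 10 and 13 members, 7 genes, were 34.4% to 41.9% GC, and those of Bgn, Fmod and Prelp were 51.2% to 53.8% GC, against a median of 49.7% over all genes kept. The promoter windows in RefSeq (GRCm38.p6; 250 bases before to 50 after the start) were divided in the same way. They were found for 8 members, in 9 windows, with 31.0% to 42.3% GC in Epyc, Kera, Aspn, Omd and Ogn and 51.0% to 63.7% GC in Fmod, Prelp and Bgn, where the median of 32851 promoters was 52.7%. Windows are shown for Epyc, the gene under question, for Aspn, the member next to it in PKO-NF1 vs PKO, and for Bgn and Fmod from the group that was lower in NF1. Capitals mark matches, on either strand, to the TATA box TATAAA (in 13.6% of all promoters), the AP-1 motif TGANTCA (7.81%), the TEAD motif GGAATG (14.7%) or the GC box GGGCGG (35.7%).
Epyc, chr10:97643818-97644117, plus strand: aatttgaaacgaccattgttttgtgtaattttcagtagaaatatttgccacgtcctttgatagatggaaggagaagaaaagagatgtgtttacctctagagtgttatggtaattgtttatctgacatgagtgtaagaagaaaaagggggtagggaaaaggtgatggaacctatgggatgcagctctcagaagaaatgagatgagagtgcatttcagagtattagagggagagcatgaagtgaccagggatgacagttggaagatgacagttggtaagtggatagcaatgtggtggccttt
Aspn, chr13:49544193-49544492, plus strand: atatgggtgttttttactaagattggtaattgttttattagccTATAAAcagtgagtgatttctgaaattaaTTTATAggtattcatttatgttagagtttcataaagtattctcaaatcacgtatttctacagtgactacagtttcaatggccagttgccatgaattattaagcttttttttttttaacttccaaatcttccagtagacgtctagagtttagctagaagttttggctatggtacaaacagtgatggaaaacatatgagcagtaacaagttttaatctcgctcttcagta
Bgn, chrX:73483351-73483650, plus strand: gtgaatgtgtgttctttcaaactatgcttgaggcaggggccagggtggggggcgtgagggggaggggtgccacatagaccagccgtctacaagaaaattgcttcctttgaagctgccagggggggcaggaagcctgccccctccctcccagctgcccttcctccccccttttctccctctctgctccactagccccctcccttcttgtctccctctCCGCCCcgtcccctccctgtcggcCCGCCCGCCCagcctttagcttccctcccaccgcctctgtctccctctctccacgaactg
Fmod, chr1:134037004-134037303, plus strand: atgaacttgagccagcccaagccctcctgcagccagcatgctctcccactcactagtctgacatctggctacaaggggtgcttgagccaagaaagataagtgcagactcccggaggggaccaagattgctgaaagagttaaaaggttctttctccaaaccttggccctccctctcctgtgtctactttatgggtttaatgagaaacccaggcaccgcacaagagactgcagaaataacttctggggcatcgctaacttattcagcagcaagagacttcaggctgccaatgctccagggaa
The Aspn window held 2 TATA matches, at -207 and -178 from the start site, and the Bgn window held 3 GC boxes, at -34, -10 and -6, the last pair overlapping. The windows of Epyc and Fmod shown here held none of the 4 motifs, but a second Epyc window, chr10:97646853-97647152, held a TEAD match at -188.

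Epyc was high in both libraries with Nf1 deletion and low in both without it. It had 1741 counts (106.2 CPM) in PKO-NF1, 1563 counts (79.3 CPM) in NF1, 240 counts (13.5 CPM) in PKO and 463 counts (27.3 CPM) in WT. The levels of the Nf1-deleted libraries did not overlap those of PKO and WT. The share of all genes separated in this way is not given here, for Epyc or for the members below. Epyc was 7.87-fold higher in PKO-NF1 than in PKO (interval 6.88 to 9.05) and 2.90-fold higher in NF1 against WT (2.62 to 3.23). These 2 pairs share no library. The PKO library was the lowest of the 4, and the log2 difference between the pairs was 1.44 (1.19 to 1.69), which is also the difference between the P2ry14 pairs.

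The family did not share this difference as a whole. Of the 9 members measured, Epyc alone was called higher in both Nf1 pairs, where 1.29% of 14700 genes were, and none was called lower in both, where 2.6% were. In NF1 vs WT the others called were 3 lower members, Bgn, Prelp and Fmod (6.31% of all genes were lower and 10.4% higher). In PKO-NF1 vs PKO, Aspn and Ogn were called higher beside Epyc (5.2% of all genes) and no member lower (9.7%). Without Epyc, which was selected on these pairs, the other 8 measured members had a median log2 ratio of 0.69 in PKO-NF1 vs PKO, with 5 above 0, and of -0.01 in NF1 vs WT, with 4 above 0. That of all genes was -0.002 in both pairs. With a trend over transcript length and GC content removed, described below, the medians of the 8 were -0.04 and -0.66. The rule was close for several: Aspn in PKO-NF1 vs NF1 (2.004-fold) and Bgn in NF1 vs WT (2.007-fold lower) lay just inside it, and Lum in PKO-NF1 vs PKO (1.996-fold) and Omd in NF1 vs WT (1.97-fold) just outside.

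**Figure D1:**
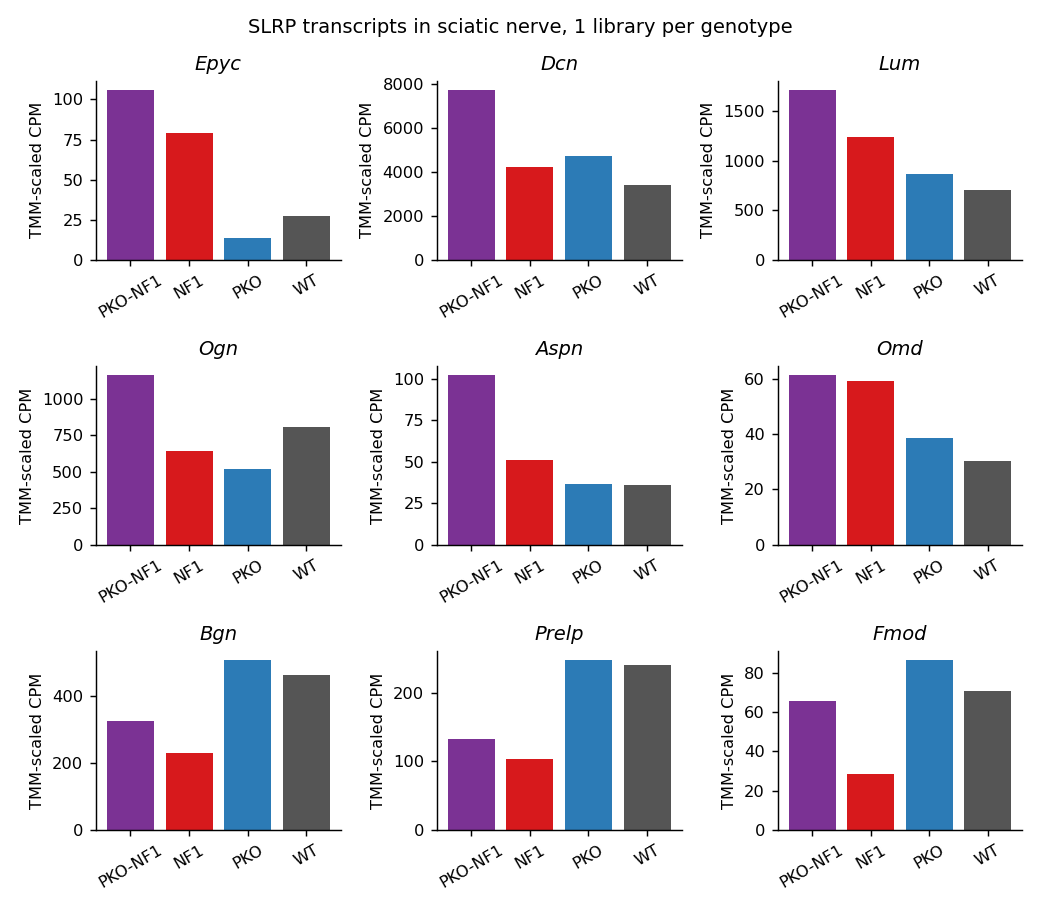
TMM-scaled CPM (vertical axis, from 0, a different scale in each panel) of the 9 measured SLRP genes in the PKO-NF1, NF1, PKO and WT libraries; each bar is 1 library and there are no error bars because there are no replicates. Epyc, Lum, Omd and Aspn are higher in both Nf1-deleted libraries than in either other library, and Bgn, Prelp and Fmod are lower in both.

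Lum and Omd, keratan sulfate members, were higher in both pairs without being called. Lum had 1719 CPM in PKO-NF1, 1235 in NF1, 861.3 in PKO and 706.0 in WT. Both Nf1-deleted libraries lay above both others. For Lum the PKO-NF1 to PKO ratio was 1.996 (1.957 to 2.036) and the NF1 to WT ratio 1.75 (1.71 to 1.79). Omd, first described in bone, had 61.5 CPM in PKO-NF1, 59.4 in NF1, 38.7 in PKO and 30.2 in WT. Its levels were again separate, with ratios of 1.59-fold (1.44 to 1.75) in PKO-NF1 vs PKO and 1.97-fold (1.77 to 2.19) in NF1 vs WT. At a 1.5-fold threshold Epyc, Lum and Omd were higher in both pairs, as were 5.35% of all genes, and Bgn and Prelp lower in both, as were 9.19%.

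Dcn, the most abundant member, had 7767 CPM in PKO-NF1, 4215 in NF1, 4729 in PKO and 3423 in WT. PKO-NF1 stood above the rest, while NF1 lay between PKO and WT. The ratios were 1.64-fold (1.63 to 1.66) in PKO-NF1 vs PKO and 1.23-fold (1.22 to 1.25) in NF1 vs WT, neither of them called. Aspn, a decorin-like protein that binds TGF-beta and collagen, had 102.5 CPM in PKO-NF1, 51.2 in NF1, 36.7 in PKO and 36.3 in WT. It was 2.80-fold higher in PKO-NF1 than in PKO (2.55 to 3.07) and 1.41-fold in NF1 against WT (1.27 to 1.56). Both Nf1-deleted libraries were above PKO and WT, which differed by 1.01-fold, with an interval of 0.90 to 1.13.

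Ogn (osteoglycin, or mimecan), the nearest relative of Epyc among the members (both are class III SLRPs), did not follow it. Ogn had 1166 CPM in PKO-NF1, 642.0 in NF1, 522.0 in PKO and 806.6 in WT. WT lay above NF1 and PKO, and PKO-NF1 above all. Ogn was thus 2.23-fold higher in PKO-NF1 than in PKO (2.18 to 2.29), but 1.26-fold lower in NF1 against WT (1.23 to 1.29). The log2 difference between these pairs was 1.49 (1.44 to 1.54, counting error only).

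Bgn, Prelp and Fmod went the other way. Bgn, the closest relative of decorin, had 326.2 CPM in PKO-NF1, 230.3 in NF1, 508.3 in PKO and 462.1 in WT, and was 1.56-fold lower in PKO-NF1 against PKO (1.51 to 1.61) and 2.01-fold lower in NF1 against WT (1.93 to 2.08). Prelp, which links basement membranes to connective tissue, had 132.0 CPM in PKO-NF1, 103.9 in NF1, 247.6 in PKO and 239.6 in WT, and was 1.88-fold lower (1.78 to 1.98) and 2.31-fold lower (2.19 to 2.43) in the same pairs. Fmod, abundant in tendon, had 65.7 CPM in PKO-NF1, 28.3 in NF1, 86.5 in PKO and 70.8 in WT, and was 1.32-fold lower (1.22 to 1.43) and 2.50-fold lower (2.26 to 2.77). In all 3 genes both Nf1-deleted libraries lay below both others, an order whose share over all genes is not given here. Bgn is X-linked, and the libraries differed in sex-linked transcripts: Xist had 9 counts in PKO-NF1, 39699 in NF1, 4948 in PKO and 10304 in WT, and the Y-linked Ddx3y 842, 0, 396 and 813 in that order. PKO and WT held both transcripts. The libraries of both Nf1 pairs and of both P2ry14 pairs differed in these transcripts. Their part in the values of Bgn or of any other member cannot be told apart from genotype and was not tested.

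**Figure D2:**
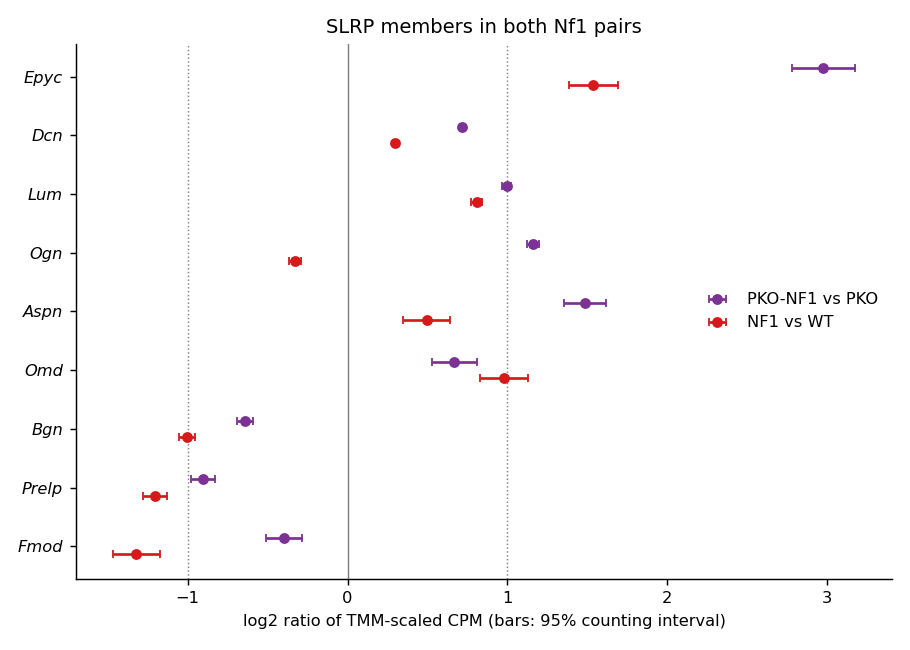
Log2 ratio of TMM-scaled CPM (horizontal axis) for each SLRP gene in PKO-NF1 vs PKO (purple) and NF1 vs WT (red); bars are 95% counting intervals, which for abundant genes are narrower than the point, and dotted lines mark 2-fold. Epyc lies beyond 2-fold in both pairs, Ogn lies on opposite sides of 0, and Bgn, Prelp and Fmod lie below 0 in both.

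Kera, a proteoglycan of cornea and tendon, was near the limit of detection. It had 0 counts in PKO-NF1, 7 in NF1, 2 in PKO and 0 in WT. After scaling, its 7 counts in NF1 were 2.01-fold the 3 counts that the 0 in WT allows. The lower bound of the counting interval for that ratio was 1.24. Kera lies between Lum and Epyc in the chromosome 10 cluster.

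Per length of the longest transcript, Dcn led the family in every library, and Epyc changed its place. In PKO-NF1 the order in CPM per kilobase was Dcn (1655), Lum (702.4), Ogn (454.6), Bgn (122.4), Aspn (44.0), Epyc (41.8), Prelp (36.5), Omd (27.4) and Fmod (21.0). Aspn and Epyc did not differ there beyond counting error, with a ratio of 1.05 (0.98 to 1.13). In NF1 Epyc was 5th at 31.2 CPM per kilobase, in PKO 9th at 5.32 and in WT 9th at 10.8, in both of these below every member other than Kera. Fmod was last of the 9 in both Nf1-deleted libraries but 6th in PKO and WT. Other neighbours differed beyond counting error in every library, except Omd and Aspn in PKO (1.09, 0.98 to 1.22).

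The sum of all 10 members was 11450 CPM in PKO-NF1, 6645 in NF1, 7044 in PKO and 5802 in WT, of which Dcn made up 59.0% to 67.9%. Ratios between some members moved further than the sum. Dcn and Lum are low-GC members, Bgn and Fmod high-GC ones, and the length and GC trend described below was not removed here. Dcn exceeded Bgn per length 13.5 times in PKO-NF1 and 10.4 times in NF1, but 5.29 times in PKO and 4.21 times in WT. Lum exceeded Fmod 33.4 times in PKO-NF1 and 55.6 times in NF1, but 12.7 times in both PKO and WT. Epyc stood at 9.20% of the per-length level of Ogn in PKO-NF1 and 12.5% in NF1, against 2.61% in PKO and 3.42% in WT.

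Members of low GC content were higher and members of high GC content lower in both pairs, apart from Ogn in NF1 vs WT, and genes at large showed a trend of the same direction. In PKO-NF1 vs PKO the 6 measured low-GC members had log2 ratios from 0.67 (Omd) to 2.98 (Epyc) and the 3 high-GC members from -0.91 (Prelp) to -0.40 (Fmod). In NF1 vs WT the ranges were -0.33 (Ogn) to 1.54 (Epyc) and -1.32 (Fmod) to -1.01 (Bgn). The sets overlap in neither pair; their dividing line, in the gap between 41.9% and 51.2% GC, was drawn after the values were seen. Over all genes the lowest GC decile, which holds Epyc, Dcn, Ogn, Aspn and Omd, had a median log2 ratio of 0.55 in PKO-NF1 vs PKO and 0.46 in NF1 vs WT, and the decile that holds Fmod and Prelp had -0.28 and -0.21. In the lowest decile 17.4% of genes were called higher in PKO-NF1 vs PKO and 18.6% in NF1 vs WT.

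With a smooth trend over transcript length and GC content subtracted, Epyc was 3.91-fold higher in PKO-NF1 than in PKO, and 1.68-fold higher in NF1 against WT, below the 2-fold rule. The fitted trend at Epyc was 1.01 and 0.79 on the log2 scale. Epyc was still the highest member in both pairs, and no member was then called in both. Lum came to 1.21-fold in PKO-NF1 vs PKO and 1.19-fold in NF1 vs WT. Aspn came to 1.26-fold and Ogn to 1.11-fold in PKO-NF1 vs PKO, so that neither was called there. Omd turned to 1.33-fold lower in PKO-NF1 against PKO, and in NF1 vs WT Dcn turned to 1.04-fold and Aspn to 1.36-fold lower, so the direction of these 3 depends on the trend. Ogn came to 2.17-fold lower in NF1 against WT. Bgn was 1.60-fold lower in PKO-NF1 against PKO and 2.02-fold lower in NF1 against WT, Prelp 1.52-fold and 1.85-fold lower, and Fmod 1.14-fold and 2.16-fold lower. The low-GC and high-GC sets then overlapped in both pairs, at -0.42 to 1.97 against -0.68 to -0.19 in PKO-NF1 vs PKO and at -1.12 to 0.75 against -1.11 to -0.89 in NF1 vs WT. Whether the trend is technical or lies in the tissue was not tested.

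**Figure D3:**
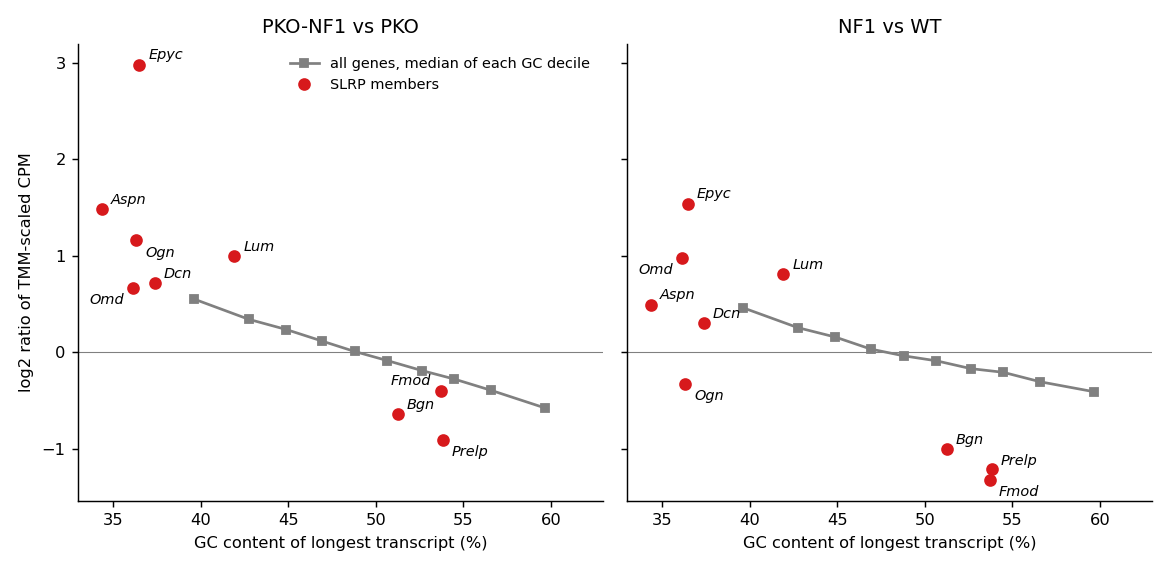
Log2 ratio of TMM-scaled CPM (vertical axis) against GC content of the longest transcript (horizontal axis, %) for the SLRP genes (red points) and for all genes (grey squares, the median of each decile of genes by GC content), in PKO-NF1 vs PKO on the left and NF1 vs WT on the right. The grey line falls from 0.55 to -0.58 on the left and from 0.46 to -0.41 on the right, Epyc lies above it in both panels and Bgn, Prelp and Fmod lie below it in both.

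Of 7 further relatives, 4 passed the filter, Optc only through its PKO value. Podn and Ecm2 went with their GC content in PKO-NF1 vs PKO and Tsku did not. Podn (podocan; 56.3% GC) had 62.5 CPM in PKO-NF1, 47.0 in NF1, 125.0 in PKO and 116.8 in WT, and was 1.999-fold lower in PKO-NF1 against PKO (1.86 to 2.16) and 2.49-fold lower in NF1 against WT (2.30 to 2.69). Ecm2 (39.1% GC), the neighbour of Aspn, had 122.0 CPM in PKO-NF1, 104.8 in NF1, 72.7 in PKO and 90.2 in WT, or 1.68-fold (1.56 to 1.80) and 1.16-fold (1.09 to 1.24) in the same pairs. Tsku (tsukushi; 55.6% GC), a secreted regulator of several growth factor pathways, had 19.8 CPM in PKO-NF1, 7.31 in NF1, 15.3 in PKO and 19.1 in WT. Tsku was 2.62-fold lower in NF1 against WT (2.14 to 3.21), with a ratio of 1.29 (1.10 to 1.52) in PKO-NF1 vs PKO, the exception. Optc (53.3% GC) had 10 counts in PKO-NF1, 6 in NF1, 25 in PKO and 6 in WT, and was called lower in PKO-NF1 vs PKO (2.30-fold, 1.07 to 5.38). Only PKO, at 1.41 CPM, took Optc past the filter, so the filter itself favoured a lower value in that pair. Podnl1 had 5 to 18 counts per library, Nyx 2 to 7 and Chad 0 to 4.

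The P2ry14 pairs each share a library with both Nf1 pairs, so their values are not independent of those above. PKO-NF1 and NF1 also differed in Xist (9 and 39699 counts), in Ddx3y (842 and 0 counts) and in muscle genes (0.0303% and 6.29% of counts). The part of these differences in the member ratios cannot be told apart from genotype and was not tested. In PKO-NF1 vs NF1 all 9 measured members were on the higher side, where 49.5% of all genes were, though the interval of Omd (0.95 to 1.13) holds 1; scaled by total counts, or with the length and GC trend removed, Omd was not, and the other 8 were. Of the 9, Fmod (2.32-fold, 2.09 to 2.57) and Aspn (2.004-fold, 1.85 to 2.17) were called higher (7.9% of all genes) and none lower (13.8%). Dcn was at 1.84-fold (1.83 to 1.86), Ogn at 1.82-fold (1.78 to 1.86) and Epyc at 1.34-fold (1.25 to 1.44). The median log2 ratio of the 9 members was 0.50, and cell type genes, listed below, shifted in this pair too. Their medians were 0.81 (nerve fibroblast), 0.60 (perineurial), 0.475 (myelinating Schwann cell), 1.64 (adipocyte), 0.63 (endothelial) and 0.83 (macrophage). Those of Schwann cell lineage and skeletal muscle genes were -0.24 and -8.01. The part of these cell types in the member ratios was not tested. In PKO vs WT only Epyc of the 9 was called, 2.03-fold lower (1.73 to 2.38); 5.22% of all genes were lower and 10% (1474 genes) higher. Ogn was 1.55-fold lower (1.51 to 1.59), not called. The other 7 members ran from 1.01-fold (Aspn) to 1.38-fold (Dcn), with 1 inside the intervals of Aspn and Prelp (0.99 to 1.08), but when scaled by total counts Dcn alone remained above WT, so the direction of the other 6 depends on the scaling.

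**Figure D4:**
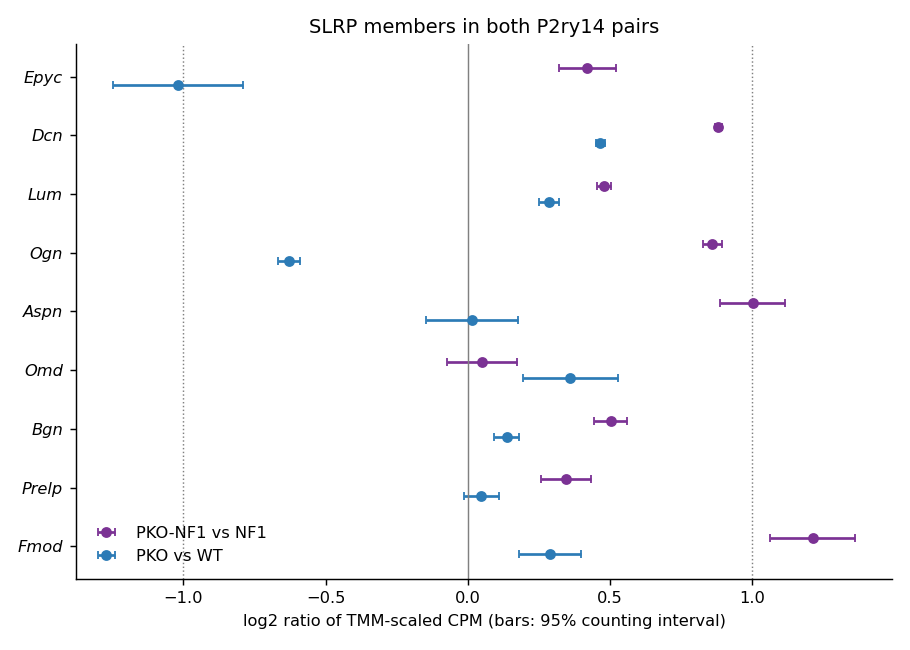
Log2 ratio of TMM-scaled CPM (horizontal axis) for each SLRP gene in PKO-NF1 vs NF1 (purple) and PKO vs WT (blue), with 95% counting intervals as bars and dotted lines at 2-fold. All 9 genes lie above 0 in PKO-NF1 vs NF1, Omd with an interval across 0 and not above it when scaled by total counts, and Epyc and Ogn lie on opposite sides of 0 in the pairs.

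Genes of other tissues in which SLRPs are abundant were read beside these values. For the counts called, the shares over all genes were 5.2% higher and 9.7% lower in PKO-NF1 vs PKO. In NF1 vs WT they were 10.4% higher and 6.31% lower. Of 16 cartilage genes 10 passed the filter, with 1 higher and 1 lower in PKO-NF1 vs PKO and 3 lower in NF1 vs WT, and all 16 summed to 326.1 CPM in PKO-NF1, 197.0 in NF1, 225.1 in PKO and 263.9 in WT. The defining cartilage genes Acan, Matn1, Matn3 and Hapln1 had at most 6 counts in any library, and Col2a1 was at 25.9 CPM in PKO-NF1, 27.7 in NF1, 23.5 in PKO and 30.3 in WT, unlike Epyc. Lect1 (chondromodulin), a cartilage gene, was 3.62-fold higher in PKO-NF1 than in PKO but had a ratio of 0.79 in NF1 vs WT. Of 10 tendon genes, a list that holds Fmod and Kera, 8 passed, with 3 higher and 1 lower in PKO-NF1 vs PKO and 1 higher and 2 lower in NF1 vs WT, and a sum of 507.1 CPM in PKO-NF1, 372.9 in NF1, 641.6 in PKO and 460.1 in WT. The tendon factor Scx had 12 counts in PKO-NF1, 79 in NF1, 4 in PKO and 12 in WT, and Tnmd, which marks mature tendon, 23, 11, 7 and 7. Of 9 bone genes 5 passed, with 2 higher in PKO-NF1 vs PKO and none called in NF1 vs WT, and all 9 summed to 902.5 CPM in PKO-NF1, 341.2 in NF1, 311.0 in PKO and 565.8 in WT, nearly all of it Spp1; Bglap, Bglap2, Ibsp and Sp7 had at most 6 counts. The part of such tissue in the tendon-rich members was not tested.

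Fibroblast genes had a lower sum in both Nf1 pairs, though not all of them went that way. The 14 nerve fibroblast genes summed to 12700 CPM in PKO-NF1, 6481 in NF1, 17900 in PKO and 11740 in WT, and Pdgfra, which marks these cells, was at 233.3, 190.7, 236.8 and 219.5 CPM in that order. Gsn alone had 3736, 1638, 6432 and 4524 CPM. Cd34, with 666.9, 420.1, 594.9 and 354.5 CPM, and Etv1, with 53.0, 53.6, 19.85 and 35.8 CPM, were higher in both pairs. Dpt, Pi16, Col1a1, Col1a2, Col3a1 and Clec3b were lower in both. In PKO-NF1 vs PKO 1 fibroblast gene, Etv1, was called higher and none lower (median log2 ratio -0.28). In NF1 vs WT none was called higher and 1, Gsn, lower (-0.54). With the length and GC trend removed these medians were -0.38 and -0.15. Of 7 perineurial genes 1 was lower in each pair, Itgb4, with medians of -0.31 and -0.61, or -0.28 and -0.36 with the trend removed. Of 10 genes of myelinating Schwann cells 6 were lower in PKO-NF1 vs PKO and 8 in NF1 vs WT, and of 7 lineage genes 1 was higher and 2 lower in PKO-NF1 vs PKO and 1 was lower in NF1 vs WT. Of 10 endothelial genes 5 and 6 were lower in these pairs, of 10 adipocyte genes 3 and 7. Over all genes 9.7% were lower and 5.2% higher in PKO-NF1 vs PKO, and 6.31% lower and 10.4% higher in NF1 vs WT. Of 10 macrophage genes Cx3cr1 was higher in both pairs and Cd163 lower in NF1 vs WT. All 20 skeletal muscle genes were higher in NF1 vs WT, and 12 were higher and 1 lower in PKO-NF1 vs PKO; removing them changed no member call. The part of these cell types in the member values was not tested. In bulk tissue fewer cells of a type and less RNA per cell cannot be told apart.

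The collagens that SLRPs bind lay on the lower side in both pairs. Of 12 fibrillar and fibril-associated collagen genes, 3 were lower (9.7% of all genes) and none higher (5.2%) in PKO-NF1 vs PKO (median -0.48). None was called in NF1 vs WT (median -0.50), where 6.31% of all genes were lower and 10.4% higher. With the length and GC trend removed the medians were 0.31 and 0.04. Col3a1, a fibrillar collagen among the 2 most abundant per length, had 3251 CPM in PKO-NF1, 1489 in NF1, 4511 in PKO and 2295 in WT. Col14a1, whose product sits on fibril surfaces as decorin does, had 59.4 CPM in PKO-NF1, 59.1 in NF1, 132.5 in PKO and 90.3 in WT.

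Among enzymes that build the sugar chains, more were called lower than higher in NF1 vs WT. Of 21 measured genes for the linker and for chondroitin and dermatan sulfate, 1 was higher and 3 lower in PKO-NF1 vs PKO (median -0.11), and none was higher and 4 lower in NF1 vs WT (median -0.52). Of all genes 5.2% were higher and 9.7% lower in PKO-NF1 vs PKO, and 10.4% higher and 6.31% lower in NF1 vs WT; the medians of these 21 with the length and GC trend removed were 0.10 and -0.13. The chondroitin 6-sulfotransferase Chst3 had 7.93 CPM in PKO-NF1, 8.58 in NF1, 19.1 in PKO and 24.1 in WT, and the polymerizing factor Chpf 29.8, 26.1, 62.3 and 60.0 CPM in the same order; both were lower in both pairs. Csgalnact2, which starts chondroitin chains, had 95.7 CPM in PKO-NF1, 99.9 in NF1, 39.0 in PKO and 50.5 in WT; its transcript is 37.4% GC, and those of Chst3 and Chpf are 53.8% and 58.0% GC. Of 5 measured keratan sulfate genes 1 was higher in PKO-NF1 vs PKO, B3gnt2, and 2 were lower in NF1 vs WT, Chst1 and Chst2 (medians 0.00 and -0.34).

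Of 9 measured proteases that cleave or process SLRPs and their helper Pcolce, 3 were lower in PKO-NF1 vs PKO (9.7% of all genes) and 1 in NF1 vs WT (6.31%). None was higher. The medians were -0.55 and -0.36, or -0.28 and -0.09 with the length and GC trend removed. The tolloid protease Tll1 was the gene lower in both, at 5.43 CPM in PKO-NF1, 3.50 in NF1, 11.8 in PKO and 9.97 in WT, and Mmp2, which degrades decorin, was at 574.5, 384.7, 578.2 and 494.3 CPM. Of 16 genes for receptors and ligands of SLRPs none was called in PKO-NF1 vs PKO (median -0.16), and 1 was lower in NF1 vs WT (median -0.36): Lrp1, an endocytic receptor of decorin, with 291.1 CPM in NF1 and 601.9 CPM in WT.

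Over the 4 libraries, the genes most like Epyc were found among 12012 others at 5 CPM or more by the distance of their 3 log2 ratios to WT. Predicted genes, with Gm or Rik symbols, were left out of this search. The nearest was Fabp7, a fatty acid binding protein of immature glia, with 19.0 CPM in PKO-NF1, 12.9 in NF1, 3.60 in PKO and 5.78 in WT, at a distance of 0.57. Klra2 (0.67), Vmn1r181 (0.74) and Speer4d (0.76) were also among the nearest, all at 13.9 CPM or less; Speer4d belongs to a family of near-identical copies, so its counts are uncertain. None of the genes compared lay within 0.5 of Epyc. Of the members, Aspn was nearest at rank 135, ahead of Lum at 227 and Omd at 399, while Ogn was at 2881 and Prelp at 10695. With only 3 ratios per gene the likeness is a description.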

How the data were processed

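The deposited values were raw counts per gene symbol in 1 table, used unchanged; FastQC 0.11.7, HISAT2 2.0.5, featureCounts 1.5.2 and mm10 are named in the submitters' processing notes. Per the labels' protocols, RNA from frozen nerves was extracted with Trizol and 1 library per genotype was made with a TruSeq kit. Counts were scaled to CPM with TMM factors (edgeR 4.0.16), 14700 genes that reached 1 CPM in any library were kept, and ratios were given exact conditional (Clopper-Pearson) 95% intervals (SciPy 1.17.1). Intervals cover counting error only, because each genotype has 1 library. Reads copied by PCR need not stand for separate molecules, so the intervals can be too narrow even for counting error. Intervals of a difference between pairs use a normal approximation. Calls needed 2-fold and an interval clear of 1; with 1 library per genotype no test across genes was made. Log2 medians add 0.5 to each count. GENCODE M21 gave coordinates and the length and GC content of the longest transcript, with 22750 symbols matched directly, 916 through a RefSeq synonym and 396 unmatched. The trend was fitted with splines of 4 degrees of freedom in log10 length and in GC content (patsy 1.0.2). The interval and trend code was checked on simulated data.

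The members and the 18 gene lists (208 entries, all found, some under an older symbol) were chosen with earlier results of these data known. Named list genes are up to 4 called in each direction per Nf1 pair and the 2 most abundant per length, with others named as markers, and some genes that the rule names are not reported here; Pdgfra, Col2a1 and the markers near 0 were named after their values were seen. Alternatives were DESeq2 1.42.0 size factors, total counts, no filter, a 5 CPM filter, 1.5-fold, removal of muscle genes, and removal of the length and GC trend.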

Additional observations from a re-analysis of the deposited data

Results flagged for a closer look

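Epyc moved in opposite directions in the P2ry14 pairs: it was higher in PKO-NF1 than in NF1 and lower in PKO than in WT, with a difference of 1.44 between the log2 ratios. Ogn moved in opposite directions both in the Nf1 pairs and in the P2ry14 pairs, with the same difference of 1.49 in either reading. These differences were not tested, since each genotype has 1 library.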

How the results depend on the processing

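No paired analysis was possible because each genotype has 1 library and the labels give no replicate numbers. With DESeq2 size factors Aspn and Bgn, both just past 2-fold, lost their calls, leaving 1 member higher in PKO-NF1 vs NF1, in place of 2, and 2 lower in NF1 vs WT, in place of 3, while 35 of 36 member ratios stayed within their counting intervals, as did 36 of 36 with muscle genes removed. Scaled by total counts 1 member was higher in PKO-NF1 vs NF1 (Aspn lost), 2 were lower in PKO vs WT, in place of 1 (Ogn added), and 4 were higher in PKO-NF1 vs PKO, in place of 3 (Lum added). With that scaling 32 of 36 ratios left their counting intervals. Without a filter 2 members, Epyc and Kera, were higher in NF1 vs WT; the 5 CPM filter changed no member count. At 1.5-fold 3 members were higher in NF1 vs WT, 6 higher and 2 lower in PKO-NF1 vs PKO, 2 lower in PKO vs WT and 4 higher in PKO-NF1 vs NF1; of all genes 19.2% were then higher in NF1 vs WT, 15.6% higher and 20.1% lower in PKO-NF1 vs PKO, 15.3% lower in PKO vs WT and 19.95% higher in PKO-NF1 vs NF1. With the length and GC trend removed 0 members were higher in NF1 vs WT, in place of 1, and 1 in PKO-NF1 vs PKO, in place of 3, while Ogn took the place of Prelp among the 3 lower in NF1 vs WT and Dcn that of Aspn among the 2 higher in PKO-NF1 vs NF1; 30 of 36 ratios left their counting intervals. Over all genes, total counts gave 18.6% lower in PKO vs WT (5.22% with TMM) and 5.11% higher (10.03%), 10.8% lower in NF1 vs WT (6.31%) and 5.2% higher in PKO-NF1 vs NF1 (7.9%). The trend removal left 2.97% higher and 4.95% lower in PKO-NF1 vs PKO (5.2% and 9.7%), 5.91% higher in PKO vs WT (10.03%), and 103 genes higher and 132 lower in both Nf1 pairs (190 and 382). No called member ratio changed sign under any of these scalings or under the trend removal. Whether any difference exceeds the spread between animals cannot be read from 1 library per genotype.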
